A study of Macaca fascicularis and Macaca mulatta and Papio anubis with 20 samples.

Results

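Structural genes of the neuronal cytoskeleton were followed across 20 tissue sections of primate dorsal root ganglia, measured by Visium spatial transcriptomics: *NEFL*, *NEFM* and *NEFH*, which encode the light, medium and heavy neurofilament subunits, *INA*, which encodes alpha-internexin, and *PRPH*, which encodes peripherin. They were found by gene symbol in the feature annotation of each section, and 5 of 5 were found in at least one annotation. The annotation used for *Macaca fascicularis* (22000 features) held 4 of them and no feature with the symbol *NEFM*. That of the sections labelled *Macaca mulatta* (20842 features) held 4 and no feature with the symbol *NEFH*, and that of the sections labelled *Papio anubis* (21369 features) held all 5. *NEFM* is therefore not analysed here in *M. fascicularis*, nor *NEFH* in the sections labelled *M. mulatta*.

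The fresh frozen ganglia came with no genotype, treatment or age in the labels, and were cut at 10 µm with 100 µm between sections. Of the 20 sections, 16 were labelled *M. fascicularis*, with 4 sections each from a female in batch 1, a male in batch 1, a female in batch 2 and a male in batch 2. Another 2 were labelled *M. mulatta* and 2 *P. anubis*, all in batch 2 and without a sex label. Sections sharing a title code were taken as 1 specimen, which the labels do not settle, so each combination of sex and batch rests on 1 specimen and p-values over sections measure a spread that may be technical. One capture area can hold several pieces of tissue. Sections labelled *M. mulatta* carry feature identifiers with the Ensembl prefix of *P. anubis*, and the reverse holds for those labelled *P. anubis*, so the labels and files of these 4 sections may be crossed, and they are named by their labels only.

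Intermediate filaments give axons their calibre and mechanical strength. In the neurofilament polymer NEFL forms the core with NEFM, NEFH and, in many neurons, alpha-internexin, while peripherin is typical of neurons whose axons leave the central nervous system. In sensory ganglia NEFH is a standard marker of large neurons with myelinated A fibres, and peripherin of small neurons with unmyelinated C fibres.

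In the *M. fascicularis* sections the files held between 1136433 and 7073134 unique molecular identifiers (UMIs, each standing for one captured transcript) under tissue, and the median tissue spot held between 398 and 5145 UMIs. The sections labelled *M. mulatta* were much shallower, with 190376 and 264661 UMIs and a median of 62 and 61 per spot. Those labelled *P. anubis* held 595020 and 12595205 UMIs. A Visium spot covers an area wider than most cells, so its value mixes neurons, their axons and the cells around them, and fewer cells of a type cannot be told apart from less RNA per cell. The tissue label was checked against a list of 14 neuron markers without filament genes, of which 13 had a symbol in *M. fascicularis*. It summed to between 14957 and 20703 CPM (UMIs scaled to a total of 1000000) in *M. fascicularis* and to between 11978 and 20600 in the sections labelled *P. anubis*, but to 3824 and 9497 in those labelled *M. mulatta*, where fibroblast markers summed to 4360 and 8180 CPM against 148 to 2501 in *M. fascicularis*.

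The levels of the neurofilament genes *NEFL* and *NEFH* varied widely among the *M. fascicularis* sections, whereas those of *INA* and *PRPH* stayed within a narrower range. The coefficient of variation over the 16 sections was 45.2% for *NEFH* and 34.6% for *NEFL*, against 17.7% for *PRPH* and 16.9% for *INA*.

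*NEFH*, the heavy subunit with its long phosphorylated tail, stood at 3743, 4184, 9179 and 8041 CPM in sections 1 to 4 of the female of batch 1 and at 2983, 5288, 5702 and 7675 CPM in those of the male of batch 1. In batch 2 it stood at 3117, 7057, 6049 and 4829 CPM in the female and at 1962, 2592, 2005 and 4251 CPM in the male. The male of batch 2 held the 3 lowest sections, but its section 4 lay above the lowest sections of each other specimen, so the groups overlapped. By mean, the order was 6287 ± 2728 CPM (SD, n = 4) in the female of batch 1, 5412 ± 1926 in the male of batch 1, 5263 ± 1696 in the female of batch 2 and 2702 ± 1072 in the male of batch 2, and the first 3 of these lay well within their SDs of one another.

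*NEFL*, the core subunit, ran alongside. Its sections 1 to 4 held 5421, 5723, 11824 and 9473 CPM in the female of batch 1, 5086, 7235, 9543 and 10836 CPM in the male of batch 1, 4956, 9344, 8555 and 7105 CPM in the female of batch 2, and 4689, 5131, 3512 and 6125 CPM in the male of batch 2. The lowest section of each of the other specimens fell inside the range of the male of batch 2, whose mean of 4864 ± 1083 CPM (SD, n = 4) was the lowest of the 4 specimens. The other means were 7490 ± 1927, 8110 ± 3087 and 8175 ± 2542 CPM, which differed by less than the spread between sections.

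*PRPH* was more even. The female of batch 1 held 2230, 3585, 2290 and 2422 CPM in sections 1 to 4 and the male of batch 1 held 3234, 3053, 2311 and 2323 CPM. The female of batch 2 held 3670, 3507, 3342 and 3605 CPM and the male of batch 2 held 3200.0, 2966, 3279 and 2689 CPM. The batch 2 female was the highest by mean, at 3531 ± 143 CPM (SD, n = 4), followed by the batch 2 male at 3034 ± 265, the batch 1 male at 2730 ± 483 and the batch 1 female at 2632 ± 641, and each neighbouring pair overlapped except the first, whose sections did not overlap.

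*INA* was present in every *M. fascicularis* section, from 247 to 426 CPM. The specimen means were 323 ± 65.7 CPM (SD, n = 4) in the female of batch 1, 325 ± 77.7 in the female of batch 2, 333 ± 21.8 in the male of batch 1 and 387 ± 46.4 in the male of batch 2, and the sections of all 4 overlapped.

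With sections summed to 1 sample per specimen, 0 of the 4 genes passed the test between batches, against 2.89% of the 12650 features tested (edgeR's quasi-likelihood test with sex in the model, Benjamini-Hochberg adjusted p under 0.05 over all features). DESeq2 also called 0 of the 4, though its unadjusted p for *NEFH* was 0.0199 (DESeq2 adjusted p 0.221). In the edgeR fit none of the 4 had an unadjusted p under 0.05. From batch 1 to batch 2 the log2 fold change was -0.72 (SE 0.37, adjusted p 0.350) for *NEFH*, -0.45 (SE 0.36, adjusted p 0.559) for *NEFL*, 0.43 (SE 0.31, adjusted p 0.512) for *PRPH* and 0.26 (SE 0.23, adjusted p 0.597) for *INA*. The signs of the first pair were thus opposite to those of the second. Treating the 16 sections as separate samples called *PRPH* (0.40, edgeR adjusted p 0.0146), or 1 of the 4 genes, but that counts sections of one specimen as independent and called 40.5% of 10670 features. Within *M. fascicularis* batch went with the Space Ranger version, and the summed fibroblast markers ranged from 784 to 2501 CPM in batch 1 and from 148 to 465 CPM in batch 2, the myelin markers from 3396 to 9393 and from 1993 to 4216 CPM; their part in these values was not tested.

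Between the sexes 0 of the 4 genes passed (each with an unadjusted p above 0.05 by edgeR), as did 0 (0%) of the 12650 features tested (edgeR, where 143 features had an unadjusted p under 0.05). DESeq2 also called 0, though its unadjusted p for *NEFH* was 0.00981 (DESeq2 adjusted p 0.9999). The largest of the 4 differences from male to female was that of *NEFH*, at 0.79 on the log2 scale (SE 0.37, adjusted p 0.998 by edgeR).

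**Figure D1:**
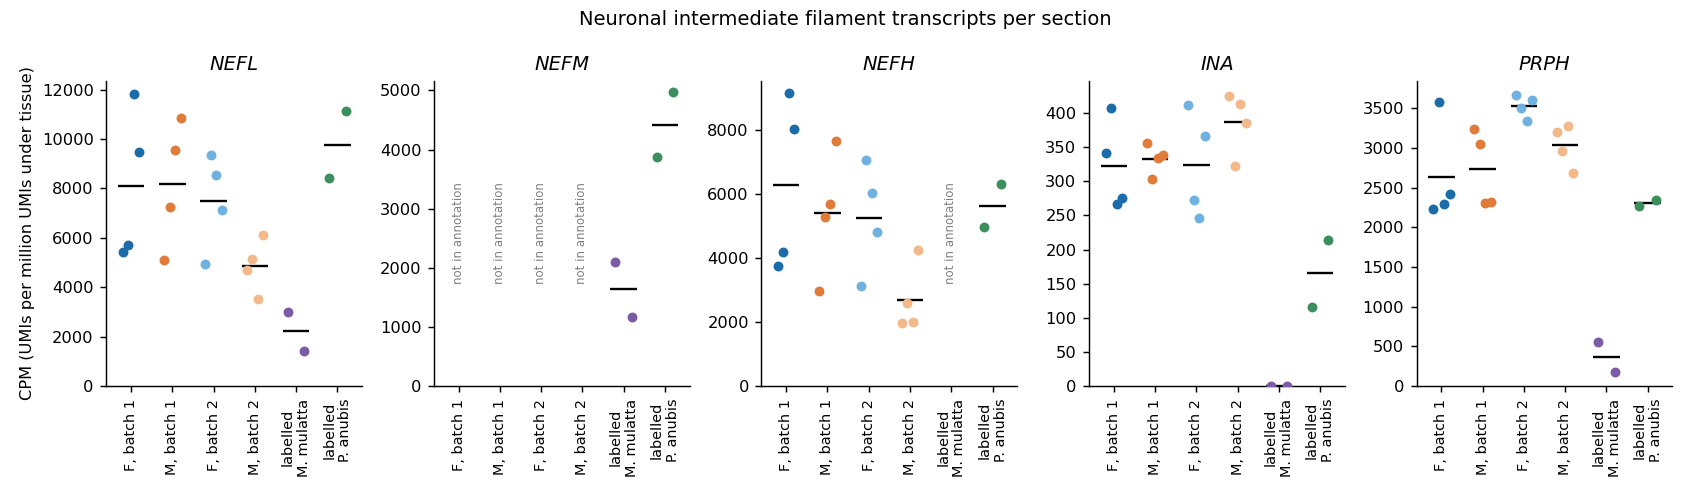
Transcript level of each gene by section, in CPM over the UMIs under tissue on the vertical axis, with a separate scale for each gene; each point is a section and each line a group mean (F, female; M, male; the first 4 groups are *M. fascicularis*). *NEFL* and *NEFH* spread widely within each specimen, *PRPH* and *INA* less so, and the sections labelled *M. mulatta* lie lowest for *NEFL*, *PRPH* and *INA*.

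Across the labelled species, levels were set side by side on the 13089 genes that share a symbol in the 3 annotations. The sections labelled *P. anubis* overlapped the *M. fascicularis* range in 3 of the 4 genes measured in both, while *INA* lay lower. On this scale *NEFL* was 15318 and 20591 CPM in the sections labelled *P. anubis*, against 5515 to 17987 in *M. fascicularis*. *NEFH* was 9055 and 11669 CPM against 3014 to 13962, and *PRPH* was 4129 and 4334 CPM against 3355 to 6037. *INA* was 211 and 396 CPM against 406 to 679, which did not overlap. No test was made, since each label rests on 2 sections that may be 1 specimen. The share of all shared genes that lay outside the *M. fascicularis* range was not computed for either label. The overlaps given here and below therefore have no background to be read against.

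The sections labelled *M. mulatta* had lower *PRPH* and *INA* than any *M. fascicularis* section, while for *NEFL* they overlapped in part. *PRPH* was 1081 and 355 CPM over the shared genes, below the lowest *M. fascicularis* section, with a ratio of means of 0.154. *NEFL* was 5889 and 2780 CPM, of which the first lay inside the *M. fascicularis* range; over all features instead of the shared genes, its 3005 and 1421 CPM lay below that range. *INA* had 0 UMIs in both sections, which allows up to 15.8 and 11.3 CPM over all features by a limit of 3 counts per section. Over all features its level was thus at least 21.7-fold and 30.2-fold lower than the *M. fascicularis* mean of 342 CPM, as far as counting error goes. The bound over the shared genes was not computed and would be smaller, since these sections stand relatively higher on that scale. For *NEFL* the ratio of means was 0.387 over the shared genes and 0.309 over all features. The neuron markers were also lowest in these sections, as given above. *INA* had 0 UMIs outside the tissue as well, so a feature that was not counted cannot be told apart from an absent transcript. The part of depth, tissue make-up and the annotation, with its identifiers of another species, in the low values was not tested.

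*NEFM*, the medium subunit, could be read only in these 4 sections. It held 2101 and 1168 CPM over all features in the sections labelled *M. mulatta* and 3865 and 4969 CPM in those labelled *P. anubis*. The 4 sections had the same order by *NEFL*, with 3005 and 1421 CPM of *NEFL* in the former and 8418 and 11125 CPM in the latter.

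Neighbouring spots resembled each other in *NEFL*, *PRPH* and *NEFH* in all *M. fascicularis* sections, and less so in *INA*. The authors deposited Moran's I for each gene and section, a score near 0 when neighbouring spots are unrelated and larger when they are alike, with a p-value adjusted within the section. In the authors' deposited table the adjusted p of *NEFL*, *NEFH* and *PRPH* was under 0.05 in 16 of 16 *M. fascicularis* sections and that of *INA* in 15, against 16.2% of the 220436 pairs of gene and section. The exception was section 2 of the male of batch 2, where *INA* had a Moran's I of 0.0045 (authors' adjusted p 0.99962 in the deposited table).

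By the authors' deposited table the median Moran's I was 0.338 for *NEFL* (0.122 to 0.611), 0.306 for *PRPH* (0.0951 to 0.570), 0.283 for *NEFH* (0.111 to 0.472) and 0.0899 for *INA* (0.0045 to 0.426). *NEFL* was above *PRPH* in 12 of 16 sections and above *NEFH* in all but 2, and *INA* was below each of the other 3 in 16 of 16. *NEFL* was among the 10 highest genes of its section in 12 sections, *NEFH* and *PRPH* in 6 each and *INA* in 0. When Moran's I also had to reach 0.1, *NEFL* and *NEFH* still counted in 16 sections and *PRPH* in 15, but *INA* in only 7. *INA* gave between 247 and 426 CPM, so its spots held few UMIs, and the part of its low count in its low score was not tested.

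Section 2 of the female of batch 1 had the highest Moran's I for all 4 genes (*NEFL* 0.611, *PRPH* 0.570, *NEFH* 0.472, *INA* 0.426) and the deepest spots, with a median of 5145 UMIs. It stood apart over all genes too: the authors' adjusted p was under 0.05 for 40.6% of its genes in the deposited table, against 5.42% to 22.1% in the other *M. fascicularis* sections. The low end was in the male of batch 2, with *NEFL* at 0.122 and *PRPH* at 0.0951 in section 4, where the median spot held 446 UMIs and the share of all genes called in the authors' deposited table was also lowest (5.42%). In the sections labelled *M. mulatta* the authors' scores were 0.0615 and 0.0897 for *NEFL*, 0.0531 and 0.0947 for *NEFM* and 0.0286 and 0.0102 for *PRPH*, the last with an adjusted p of 0.737 in the deposited table. In the sections labelled *P. anubis* they were 0.157 and 0.409 for *NEFL*, 0.0807 and 0.365 for *NEFM*, 0.101 and 0.358 for *NEFH*, 0.0628 and 0.297 for *PRPH* and 0.0031 and 0.150 for *INA*. The shallower section was the lower one for each gene there.

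The balance between *NEFH* and *PRPH*, the pair used to tell large from small sensory neurons, differed strongly from section to section. It is given as the *NEFH* share of the UMIs of both genes, which depends on how well each transcript is captured, so only its differences between sections or spots are read. The share was 62.7%, 53.9%, 80.03% and 76.8% in sections 1 to 4 of the female of batch 1, and 48.0%, 63.4%, 71.2% and 76.8% in those of the male of batch 1. In batch 2 it was 45.9%, 66.8%, 64.4% and 57.3% in the female and 38.0%, 46.6%, 37.9% and 61.3% in the male. The exact (Clopper-Pearson) 95% binomial intervals, which cover counting error only, were narrow beside these differences, as from 37.0% to 38.9% for the lowest section and from 79.7% to 80.3% for the highest. In batch 1 the first 2 sections of each animal (48.0% to 63.4%) lay below the last 2 (71.2% to 80.03%). The *NEFH* and *NEFL* levels of batch 1 split likewise, whereas batch 2 showed no such split in the share. The same sets of sections deviated together across the batch 1 animals (correlation of deviations 0.238 to 0.538, given at the end). How far the section differences in batch 1 were shared between the animals was not tested.

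Each specimen spanned over 20 percentage points among its own sections, and all 4 overlapped. Their means were 68.3% ± 12.3 (SD, n = 4), 64.8% ± 12.5, 58.6% ± 9.37 and 46.0% ± 11.0 in the order given. The mean share was 14.3 percentage points lower in batch 2 than in batch 1 (exact two-sided permutation test over 4 specimens, p 0.333, the smallest this design allows) and 8.08 points higher in females than in males (exact two-sided permutation test, p 0.667). The sections labelled *P. anubis* had shares of 68.7% and 72.9%, inside the *M. fascicularis* range.

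**Figure D2:**
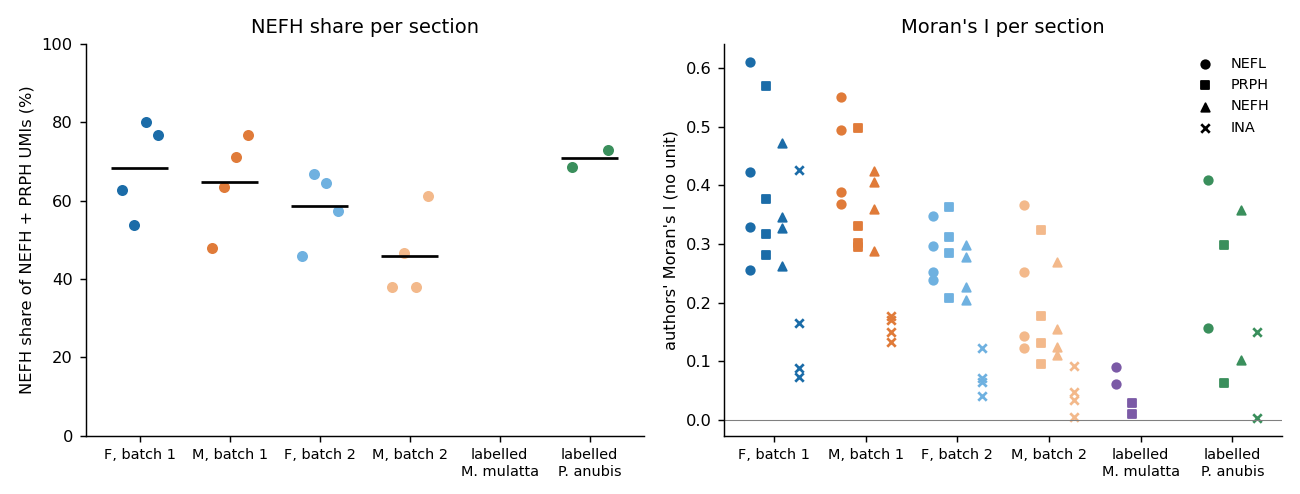
Left, the *NEFH* share of *NEFH* and *PRPH* UMIs in each section (percent), with a line at each group mean. Right, the authors' Moran's I of *NEFL*, *PRPH*, *NEFH* and *INA* in each section; the share runs from 37.9% to 80.03% over *M. fascicularis*, and *INA* lies below the other genes in each of the 16 sections.

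Within sections the balance varied from spot to spot, and spots with similar balance lay together. It was read in spots with at least 10 UMIs of the pair, of which the 15 *M. fascicularis* sections with spot data held between 168 and 1051 each. The median spot share ran from 33.3% to 81.4% over these sections. The variance of the counts about the section's share was between 4.53 and 24.99 times that of binomial sampling (chi-square per degree of freedom), which is above the 1 of pure counting error in 15 of 15 sections.

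Most of these spots held both transcripts. Between 47.4% and 82.1% of them had a share from 20% to 80%, between 0.0951% and 35.0% lay under 20%, and between 2.46% and 52.5% lay over 80%. The section with most *PRPH*-leaning spots was section 1 of the female of batch 2, and the one with most *NEFH*-leaning spots was section 3 of the female of batch 1.

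Moran's I of the spot share, computed over neighbouring spots of the array, was between 0.299 and 0.575 with a median of 0.373. It was 0.407 in the deeper section labelled *P. anubis*. The shallower one had only 24 neighbouring pairs, which gave -0.297. On the array the *NEFH*-rich and *PRPH*-rich spots lay in patches in the 4 sections drawn.

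**Figure D3:**
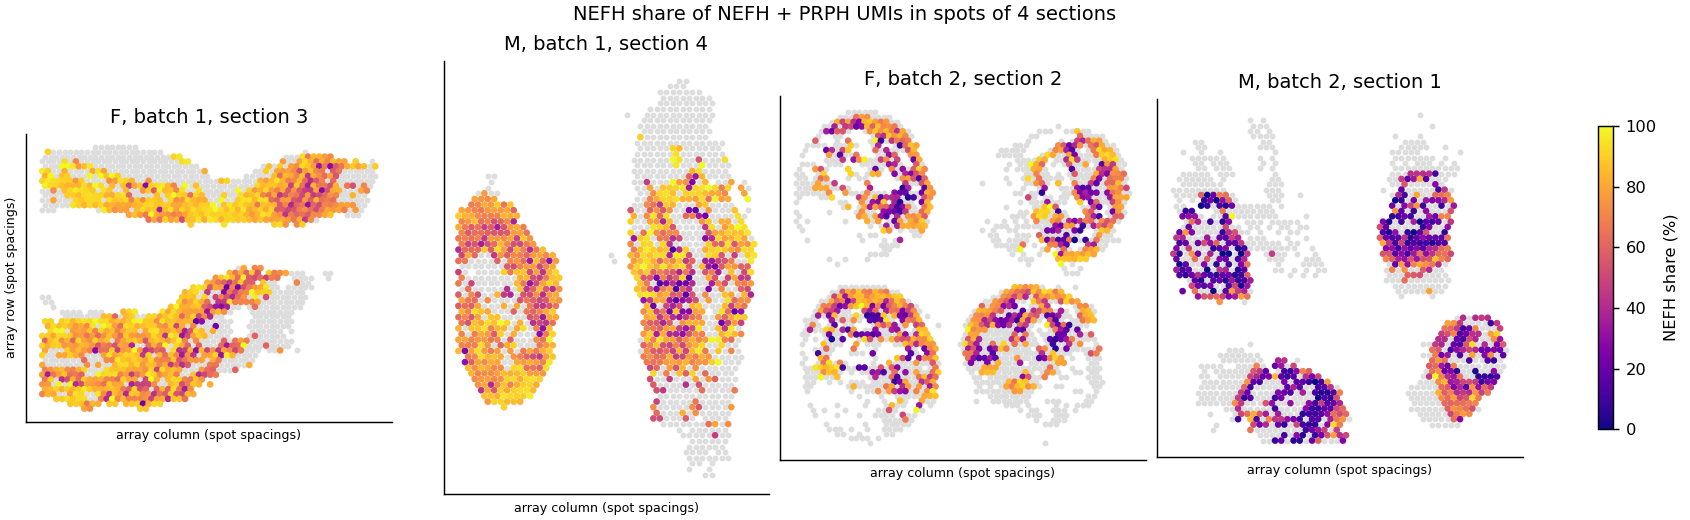
*NEFH* share (percent, colour) of each spot with at least 10 *NEFH* and *PRPH* UMIs in the section of each *M. fascicularis* specimen with most such spots; grey spots have fewer, and both axes count spot spacings on the array. Moran's I of the share is 0.347, 0.317, 0.377 and 0.421 from left to right, and spots of low and of high share lie in patches.

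*NEFL* followed *NEFH* along this balance, and *INA* followed *PRPH*. Spots of each section were sorted by *NEFH* share and cut into 4 equal bins; *NEFH* and *PRPH* themselves were used for the sorting and were not tested. Over the 15 sections the mean level of *NEFL* was 3838 ± 1322 CPM (SD, n = 15) in the bin richest in *PRPH*, then 6053 ± 2381, 9339 ± 3466 and 13725 ± 3187 CPM in the bin richest in *NEFH*. *INA* ran the other way, from 480 ± 56.6 CPM through 399 ± 78.7 and 291 ± 94.2 to 221 ± 64.7 CPM.

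For the test the spots at or beyond the outer quartiles of the share were used, 2193 *NEFH*-rich and 2196 *PRPH*-rich spots, which differ from the outer bins (2176 and 2164 spots) only by ties and rounding at the limits. In single sections the *NEFL* level of the *NEFH*-rich spots ran from 8516 to 18263 CPM with a median of 14327, and that of the *PRPH*-rich spots from 2126 to 6772 CPM with a median of 3242. The ranges did not overlap, and *NEFL* was higher in the *NEFH*-rich spots in 15 of 15 sections. The share of all features without overlap, or with 1 direction in each section, was not computed here or for the spot classes below. With spots summed per specimen and class, *NEFL* rose by 1.86 on the log2 scale (SE 0.12, edgeR adjusted p 7.59e-07, specimen as a block), where 18.3% of the 11039 features tested rose. Within specimens the section values lay from 1.43 to 2.15 in the female of batch 1, from 1.61 to 1.97 in the male of batch 1, from 2.20 to 2.47 in the female of batch 2 and from 1.23 to 1.81 in the male of batch 2.

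*INA* held between 126 and 339 CPM in the *NEFH*-rich spots (median 208) and between 379 and 616 CPM in the *PRPH*-rich spots (median 472). The ranges did not overlap here either, and *INA* was lower in 15 of 15 sections. Its log2 fold change was -1.06 (SE 0.09, edgeR adjusted p 1.15e-08), where 16.3% of the features tested fell. Within specimens it lay from -2.03 to -0.71, from -1.32 to -0.63, from -1.76 to -0.98 and from -0.78 to -0.60, in the same order.

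Both calls held under each of 14 alternatives, with *NEFL* between 1.26 and 1.97 and *INA* between -1.17 and -0.78. The *NEFH*-rich spots held fewer UMIs than the *PRPH*-rich spots in 14 of 15 sections; after thinning each spot to 1000 UMIs the values were 1.64 and -0.93. Neither difference between batches was called (edgeR interaction, log2 difference 0.21, adjusted p 0.962 for *NEFL* and 0.28, adjusted p 0.786 for *INA*), nor between sexes (adjusted p 0.9998 for both).

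**Figure D4:**
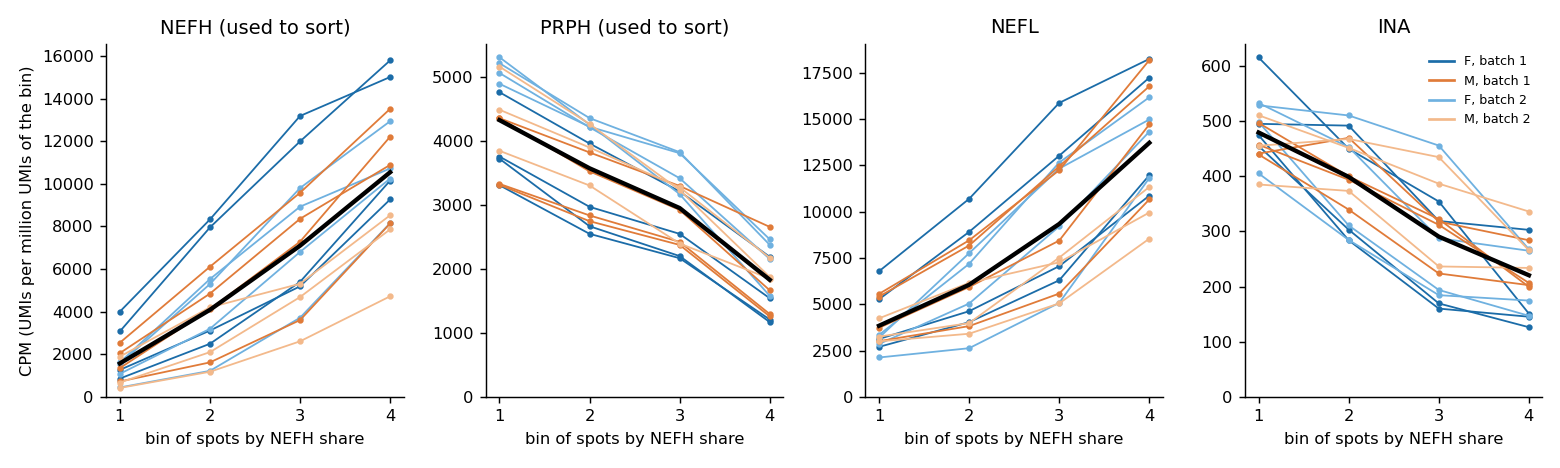
Level (CPM) of each gene in 4 equal bins of spots sorted by *NEFH* share, from the *PRPH*-rich bin 1 to the *NEFH*-rich bin 4; each line is 1 of 15 *M. fascicularis* sections, coloured by specimen, and the black line is their mean. *NEFH* and *PRPH* follow from the sorting, while *NEFL* goes from 3838 to 13725 CPM and *INA* from 480 to 221 CPM on average.

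The medium subunit could be placed on the same balance in the sections labelled *P. anubis*. In the deeper one, with 1274 such spots, *NEFM* went from 2415 CPM in the *PRPH*-rich bin through 4215 and 6158 to 8167 CPM in the *NEFH*-rich bin. *NEFL* went from 5549 to 18047 CPM there and *INA* from 390 to 82.9 CPM, the same directions as in *M. fascicularis*. The shallower section had 98 such spots, with *NEFM* at 4468 CPM in the first bin and 10394 CPM in the last, and its *INA* rested on 1 UMI per bin. These are single sections without a test.

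Genes that mark the large sensory neurons of A fibres lay with *NEFH*, and those of C fibre neurons with *PRPH*. Of an A fibre list of 22 genes, 15 passed the filter on low counts, 12 rose and 0 fell from *PRPH*-rich to *NEFH*-rich spots, with a median log2 fold change of 1.81. Of a C fibre list of 29 genes, 22 passed, 20 fell and 0 rose, with a median of -1.78. The median over all features tested was -0.0016. These counts stand beside the 18.3% of features that rose and the 16.3% that fell. The lists were chosen with earlier results of these data known, so the counts are no independent check. The filter can also keep a low gene for its counts in 1 class alone. Without the filter 12 of 20 tested A fibre genes rose and 0 fell, and 17 of 26 tested C fibre genes fell and 0 rose. In that setting 2020 of 16251 features rose and 1891 fell (edgeR). After thinning each spot to 1000 UMIs, 8 of 9 tested A fibre genes rose and 1 fell, and 13 of 14 tested C fibre genes fell and 0 rose.

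*PVALB*, a calcium buffer of proprioceptors, held 983 CPM in the *NEFH*-rich and 111 CPM in the *PRPH*-rich spots (mean of 4 specimens; log2 fold change 3.19, SE 0.09, edgeR adjusted p 1.22e-17). It was higher in each specimen: 934 against 126 CPM in the female of batch 1, 1233 against 118 in the male of batch 1, 1148 against 127 in the female of batch 2 and 619 against 74.2 in the male of batch 2. *RUNX3*, a transcription factor of proprioceptors, rose by 2.70 and *KCNC1*, a potassium channel of fast-firing neurons, by 2.59 on the log2 scale. The sodium channel gene *SCN1A* (2.44), the acid-sensing channel gene *ASIC1* (2.401) and *NTRK3* (2.09), the neurotrophin-3 receptor, also rose, but at under 4 CPM in either class, and *NTRK3* was higher in only 3 of 4 specimens. *NTRK2*, *PIEZO2* and *SCN8A* did not pass (log2 fold change -0.34, -0.22 and 0.51, edgeR adjusted p 0.427, 0.130 and 0.322).

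On the other side, *SCN11A*, a sodium channel of nociceptors, held 123 CPM in the *NEFH*-rich and 630 CPM in the *PRPH*-rich spots (log2 fold change -2.45, SE 0.28, edgeR adjusted p 0.00539), and it was lower in 4 of 4 specimens. *TRPV1*, the capsaicin receptor, fell by 2.26 on the log2 scale, from 139 to 30.9 CPM, and *SST*, the neuropeptide somatostatin, by 2.15. *CALCA*, which encodes calcitonin and CGRP, held 801 CPM in the *PRPH*-rich and 232 CPM in the *NEFH*-rich spots (log2 fold change -1.91, edgeR adjusted p 0.0387). *SCN10A*, another nociceptor sodium channel, fell by 2.42 from only 7.32 to 1.90 CPM. *MRGPRX1*, an itch receptor, fell by 3.15. *TRPA1*, the irritant receptor, had 6 UMIs in the *NEFH*-rich spots of all specimens and 186 in the *PRPH*-rich spots, too few for its fitted change of -4.60 to be read as a size. *ADCYAP1* and *LPAR3* were the tested genes of this list that did not pass.

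**Figure D5:**
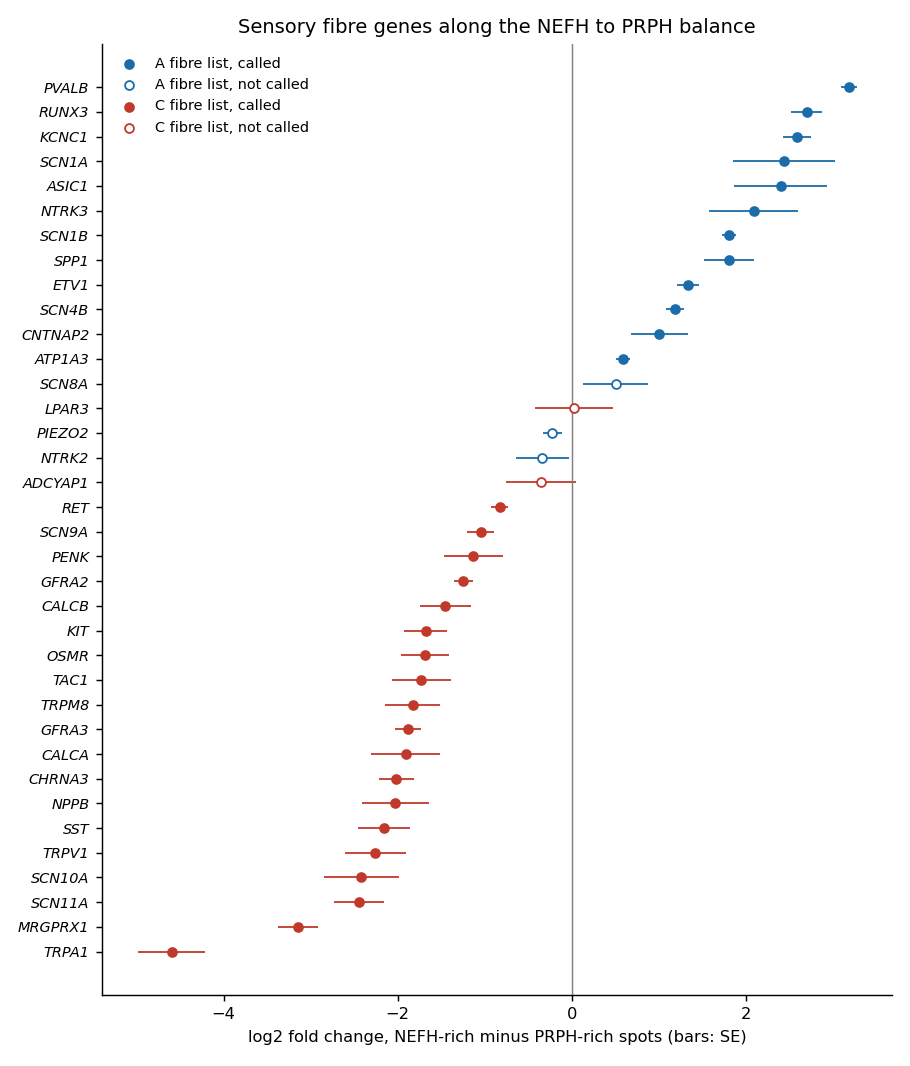
Log2 fold change from *PRPH*-rich to *NEFH*-rich spots of 36 tested genes of the A fibre (blue) and C fibre (red) lists; bars are standard errors and filled points have an edgeR adjusted p under 0.05. The 12 called A fibre genes lie to the right of 0 and the 19 called C fibre genes drawn to the left.

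Over all genes, the largest rises among genes of at least 20 CPM were those of *CALB2*, the calcium buffer calretinin (log2 fold change 3.48, from 12.8 to 132 CPM), *PTH1R*, the parathyroid hormone receptor (3.24), *PVALB*, *OTOS* (3.10) and *CLEC2L* (3.06). The largest falls were those of *SYNPR*, a synaptic vesicle protein (-2.74, from 216 to 32.5 CPM), *PRKCD*, a protein kinase C (-2.74), *GIP*, an incretin hormone (-2.73), *SCN11A* and *LPO*, lactoperoxidase (-2.43). Each kept its direction in 4 of 4 specimens, and their edgeR adjusted p lay between 1.22e-17 and 0.00539.

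Genes of filament turnover and transport rose in part with *NEFH*, beside the 18.3% of all features that rose. Of 8 listed turnover genes 5 were tested and 4 rose (median log2 fold change of the 5, 0.88): the chaperone genes *HSPB8* (0.94) and *BAG3* (0.94), the calpain protease gene *CAPN2* (0.88) and *TRIM2*, a ubiquitin ligase of the light subunit (0.63). Of 7 tested transport genes 5 rose and 0 fell (median 0.22), among them *MYO5A* (0.77), a myosin that binds neurofilaments, and *KIF5A* (0.61), the kinesin that carries them, though *KIF5A* was higher in only 3 of 4 specimens; the kinesin genes *KLC2* and *KIF5B* rose by 0.22 each.

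Kinases, phosphatases and microtubule genes went both ways. Their counts, and those of the 2 lists after them, are to be read against the 18.3% of all features that rose and the 16.3% that fell, and with 4 to 12 genes a list several lie near these shares. Among 12 tested genes for filament phosphorylation 4 rose and 1 fell (median 0.13), including *CDK5* (0.70), a kinase of neurofilament tails, while *MAPK3* fell by 0.64. Among 12 tested microtubule genes 6 rose and 5 fell (median 0.27): the tubulin gene *TUBA4A* (1.37) and *MAP2* (1.21, at under 4 CPM) rose, and the tubulin-binding genes *STMN4* (-1.53) and *STMN1* (-1.45) fell. Of 4 tested linker genes (median 0.09) *MACF1* rose (0.45, in 3 of 4 specimens) and *ANK2* fell by 0.23. Of 6 tested genes for other intermediate filaments 0 rose (median 0.11), and *KRT19* and the glial *GFAP* fell by 0.97 and 0.26.

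Other cell types moved with the balance in part. Summed neuron markers went from 20029 ± 1931 CPM (SD between sections, n = 15) in the *PRPH*-rich bin through 19126 and 18916 to 18237 ± 1861 in the *NEFH*-rich one. This small fall of the means was not tested within sections. Myelin markers had means of 3199 ± 1111 and 3088 ± 1694 CPM in the outer bins. Of single neuron markers 3 of 13 tested rose and 5 fell, and of single myelin markers 6 of 10 rose and 2 fell, beside 18.3% rising and 16.3% falling over all features; the rising share of the neuron markers and the falling share of the myelin markers lie near these. Fibroblast markers rose in 6 of 6 tested, from 501 ± 463 to 849 ± 752 CPM summed, and smooth muscle markers in 3 of 5; their part in the differences above was not tested.

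Spots rich in neuron markers held more *PRPH* and somewhat more *INA*, while the smaller rise of *NEFH* was called in only some settings. The top 25% of spots of each section by their share of UMIs in the 14-gene neuron list, which holds no filament gene, was set against its other spots. Of the 13 tested list genes, which the selection used, 10 rose and 2 fell. The list holds *THY1*, *STMN2*, *TUBB3* and *SNCG*, given below among the genes most like *PRPH* over spots. Of these, *STMN2* is also given among those most like *NEFL*. The list further holds *SNAP25*, given among those most like *NEFL* and *NEFH*. The part of this make-up in the values was not tested. *PRPH* held between 2755 and 4421 CPM in the neuron-rich spots (median 3670) and between 1451 and 3084 CPM in the others (median 2512), and it was higher in 15 of 15 sections. Across specimens it rose by 0.60 on the log2 scale (SE 0.08, edgeR adjusted p 1.51e-06, specimen as a block), *INA* by 0.30 (SE 0.07, adjusted p 0.00222) and *NEFH* by 0.25 (SE 0.08, adjusted p 0.0165), where 14.6% of the 12093 features tested rose. *INA* was higher in 15 of 15 sections and *NEFH* in 13.

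The call of *NEFH* held in 5 of 11 alternatives. Its rise was 0.12 (edgeR adjusted p 0.145) in the top 10% of spots and 0.13 (adjusted p 0.160) with at least 1000 UMIs per spot.

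*NEFL* did not pass (0.20, SE 0.08, edgeR adjusted p 0.0536) and was higher in 11 of 15 sections. It passed with DESeq2 (adjusted p 0.0269), with sums per section and the section as a block (0.17, edgeR adjusted p 0.0134) and without the male of batch 2 (0.26, edgeR adjusted p 0.00537), but was 0.07 both in the top 10% of spots and with at least 1000 UMIs per spot (edgeR adjusted p 0.454 and 0.513). Without the female of batch 1 only *PRPH* stayed past the threshold (*NEFH* 0.21, edgeR adjusted p 0.194, and *INA* 0.22, adjusted p 0.0952) and the count of called features went from 4074 to 2340; without the male of batch 1 *NEFH* was also lost (0.22, adjusted p 0.114). With no block for specimen 0 genes were called (edgeR; 1124 features had an unadjusted p under 0.05).

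The balance shifted with the neuron markers. The *NEFH* share was lower in neuron-rich than in other spots in 15 of 15 sections, with a difference between -21.7 and -1.76 percentage points, with a median of 59.6% against 66.8%. Averaged per specimen it was lower by 6.28 ± 2.68 points (SD, n = 4; exact two-sided sign-flip permutation test, p 0.125, the smallest 4 specimens allow). Neuron-rich spots were the shallower class in only 1 of 15 sections.

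Spots rich in myelin markers held less of all 4 genes. In the top 25% of spots by a list of 12 myelin genes, *PRPH* held between 764 and 2329 CPM (median 1595) against 2375 to 3744 CPM in the other spots (median 3147), with no overlap. *NEFL* held between 1225 and 4855 CPM (median 3674) against 4806 to 12244 CPM (median 7353), and each of the 4 genes was lower in 15 of 15 sections. The log2 fold changes were -1.05 for *NEFL* (SE 0.20, edgeR adjusted p 0.000519), -1.02 for *PRPH* (SE 0.17, adjusted p 0.000205), -0.89 for *NEFH* (SE 0.18, adjusted p 0.0011) and -0.89 for *INA* (SE 0.15, adjusted p 0.00021). In this comparison 16.4% of the 10958 features tested fell and 17.3% rose.

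The smallest *NEFL* declines were in the male of batch 2, from -0.47 to -0.27, against -2.12 to -0.97 in the male of batch 1; the difference between batches was not called for any of the 4 genes (edgeR interaction, adjusted p from 0.185 to 0.438). Myelin-rich spots were the shallower class in 15 of 15 sections, with a median of 592 UMIs over sections against 2164. With at least 1000 UMIs per spot *INA* no longer passed (-0.33, edgeR adjusted p 0.114), and the falls of *PRPH* and *NEFL* were smaller, at -0.49 and -0.68 (edgeR adjusted p 0.0351 and 0.00626). *NEFH* was then at -0.70 (edgeR adjusted p 0.00396). With no block for specimen only *NEFL* passed. The *NEFH* share was higher in myelin-rich spots in 11 of 15 sections, with a median of 63.6% against 62.6%.

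Over spots, *NEFL* and *NEFH* went together most closely and *NEFH* and *INA* least. The Pearson correlation of log-scaled levels over the spots of a section, which share library and depth, was between 0.221 and 0.719 for *NEFL* with *NEFH* (median 0.475), between 0.139 and 0.548 for *NEFL* with *PRPH* (median 0.369) and between 0.0436 and 0.448 for *NEFH* with *PRPH* (median 0.267). *INA* correlated more with *PRPH* (0.159 to 0.4996, median 0.336) than with *NEFL* (median 0.200) or *NEFH* (median 0.144). In the deeper section labelled *P. anubis*, *NEFM* correlated with *NEFL* at 0.477, with *NEFH* at 0.461, with *PRPH* at 0.349 and with *INA* at 0.130 over 2532 spots.

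The genes most like each filament gene over spots were taken from 5492 genes of at least 20 CPM by the mean within-section correlation over 15 sections. For *NEFL* they were *NEFH* (0.475), *STMN2* (0.426), *SNAP25* (0.424), *ATP1B1* (0.415) and *DEPDC5* (0.414). For *NEFH* they were *NEFL* (0.475), *ALDOC* (0.401), *SNAP25* (0.372), *VAMP1* (0.356) and *SPP1* (0.354). *PRPH* was most like *THY1* (0.447), *OLFM1* (0.443), *STMN2* (0.429), *TUBB3* (0.415) and *SNCG* (0.415), and *INA* was most like *CALCB* (0.333), *TMEM255A* (0.331), *OLFM1* (0.326), *SCG3* (0.324) and *PRPH* (0.320). The median over all genes was between 0.0716 for *NEFH* and 0.108 for *PRPH*.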

How the data were processed

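The deposited matrices hold UMI counts per feature and spot, made by the authors with Space Ranger 2.0.0 in 12 sections and 2.1.0 in 7, per the file headers; the build Mmul_10 is named in the submitters' processing notes, though the *M. fascicularis* identifiers are those of that species. The authors' deposited tables give summed counts per gene, Moran's I scores and p-values. One section (male, batch 2, section 3) entered by its table alone. Spots under tissue with at least 200 UMIs were used for spot classes. The members and lists were chosen with earlier results of these data known. Counts were summed per specimen, or specimen and class, and tested with edgeR 4.0.16 (quasi-likelihood, Benjamini-Hochberg over all features passing filterByExpr); DESeq2 1.42.0, other thresholds, thinning, blocks and left-out sections were alternatives. On simulated data edgeR recovered 92% of 2-fold changes between batches (12627 genes, 12 false calls), 96% between sexes (12622 genes, 6), 100% for neuron-rich (11891 genes, 6), 97% for myelin-rich (10750 genes, 8) and 100% for *NEFH*-rich against *PRPH*-rich spots (10853 genes, 5). The simulation changed only genes above 20 CPM and gave every gene the same fixed spread between samples. These rates check the code and are not the power of the fits on the real counts. Named genes were the filament genes, the 5 largest called rises and falls of at least 20 CPM, up to 6 called per fibre list besides *PVALB*, *NTRK3*, *SCN10A* and *CALCA*, up to 4 per partner list, and 5 per gene by correlation. R was 4.3.3, Python 3.11.15 and scipy 1.17.1. Some genes that the rule names are not reported here. The interaction tests, the *NEFH* share within neuron-rich and myelin-rich spots, and the bins in the sections labelled *P. anubis* were added after seeing the data. No sequences or coordinates were used here.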

Additional observations from a re-analysis of the deposited data

Results flagged for a closer look

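In groups of 4 sections the highest or lowest section was set against the others for levels, Moran's I, *NEFH* share and class ratios; of 66 such groups 2 had a section far from the rest, and chance alone gives about 1 in 20. *PRPH* was 3585 CPM in section 2 of the female of batch 1, against 2230 to 2422 CPM in its other sections. In the same section the log2 ratio of *NEFL* between neuron-rich and other spots was -0.27, against 0.30 to 0.37 in the other sections of that specimen.

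Spots outside the tissue, which enter no comparison, also held filament transcripts: 38480 UMIs of *NEFL*, 25623 of *NEFH*, 10789 of *PRPH* and 1282 of *INA* over the 15 *M. fascicularis* sections with spots. These were a median of 9.06%, 9.49%, 7.37% and 7.52% of each gene's UMIs, beside 9.09% of all UMIs. Their level outside the tissue was a median of 0.932 times that under it for *NEFL*, 0.957 for *NEFH*, 0.765 for *INA* and 0.754 for *PRPH*. It was lower outside in 10, 8, 14 and 15 of 15 sections, in the same order. The highest ratio was 1.21 for *NEFL* and 1.49 for *NEFH*.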

How the results depend on the processing

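The calls and directions of *NEFL* and *INA* along the *NEFH* to *PRPH* balance held under each of 14 alternatives. Counts of called features moved more. Between batches 365 features became 1291 without the filter on low counts, 4319 with sections as samples and 4425 with the section number as a replicate block besides, where 1 of the 4 filament genes (*PRPH*) was called both times; leaving out 1 section gave 109 (without section 1 of the batch 2 male) to 839 (without section 4 of the batch 1 female), with 0 filament genes called throughout. Between sexes the counts were 8, 2 and 8 under the same 3 settings. For neuron-rich spots 4074 became 2399 with DESeq2, 1949 with sums per section and the section number as a replicate block, and 0 with no specimen block, where 0 of the filament genes passed; leaving out a specimen gave 2340 to 4323 features and 1 to 4 filament genes. For myelin-rich spots 3695 became 546 with no specimen block (1 filament gene), 1846 at 1000 UMIs per spot, and 2070 to 4671 when a specimen was left out. For the balance 3827 became 2385 with DESeq2, 856 with no specimen block (6 A fibre genes rising) and 1344 after thinning (13 C fibre genes falling, and of 9 tested A fibre genes 8 rising and 1 falling). *INA* passed in 7 sections at a Moran's I of at least 0.1. Section numbers were not taken as pairs: same-numbered sections of different specimens had a correlation of deviations over 0.1 in 4 of 16 pairs across batches (median 0.0048) and in 4 of 8 within a batch (median 0.128). Those 4 were all in batch 1 (0.238 to 0.431), where sections 1 and 2 of both animals, and sections 3 and 4, deviated together also across numbers (0.398 to 0.538). With the section number as a replicate block *NEFH* was not called in neuron-rich spots (edgeR adjusted p 0.348). *INA*, at 247 to 426 CPM, gave few UMIs per spot, which limits what single spots show.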
